A study of Mus musculus with 16 samples.

Results

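The genes studied here are the core of the intrinsic, or mitochondrial, apoptosis pathway in the cortex of mouse pups. They were chosen by name as 3 pro-survival genes (Bcl2, Bcl2l1 and Mcl1) and 6 pro-death genes (Bax, Bak1, Bcl2l11, Bbc3, Apaf1 and Casp9), so that 9 of the 36930 entries of the expression table were taken. Reads were found for 8 of them, and these 8 also passed the filter on low values, which 21183 entries passed. Bak1 had no value in any of the 16 pups.

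RNAseq was done at P7 on cortices of 8 Avil-ChR2 pups and 8 ChR2-flfl pups, all on a C57BL6 background. Both genotypes carried the floxed fusion of channelrhodopsin-2 and td-Tomato in the Rosa26 locus, and all pups received blue light for 1 h per day from P1 to P5. In Avil-ChR2 pups, Cre under the control of advillin (Avil), a gene of peripheral sensory neurons, removes the stop in front of the fusion and makes these neurons sensitive to blue light, which is meant to model early-life pain. ChR2-flfl pups are Cre-negative litter mates and therefore insensitive to the light, and without a group that had no light the genotype and the light response cannot be told apart.

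Intrinsic apoptosis is decided at the outer membrane of mitochondria. BCL2, BCL-XL (encoded by Bcl2l1) and MCL1 hold the pore-forming proteins BAX and BAK (encoded by Bak1) in check, and the BH3-only proteins BIM (encoded by Bcl2l11) and PUMA (encoded by Bbc3) bind the pro-survival proteins and free or activate the pore formers. Cytochrome c that leaves through the pore assembles APAF1 into the apoptosome, which activates caspase-9 and then the executioner caspases. In the rodent cortex this pathway removes surplus neurons during the first postnatal weeks, and it is controlled to a large part at the level of protein and of protein binding, which RNAseq does not measure.

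The 7 members of the BCL2 family share the BH3 region, a region involved in their binding to each other. Its coding core is shown because it is what joins the genes compared here, including the one without reads. Each line gives 24 bases, 5′ to 3′ on the coding strand, which encode 8 residues from a leucine onwards, and the capitals mark the codon of the aspartate that these regions have in common.
Bcl2: ctccgccgggctgggGATgacttc
Bcl2l1: ctgagagaggcaggcGATgagttt
Mcl1: ctgcggcgcgtgggcGACggcgtg
Bax: ctccggcgaattggaGATgaactg
Bak1: cttgctctcatcggaGATgatatt
Bcl2l11: ctgcggcggatcggaGACgagttc
Bbc3: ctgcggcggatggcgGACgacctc
The windows were read from GENCODE transcripts of GRCm38 and lie in coding exons. They are at chr1:106712578-106712601 for Bcl2 (minus strand, exon 1), chr2:152829700-152829723 for Bcl2l1 (minus strand, exon 2), chr3:95659436-95659459 for Mcl1 (plus strand, exon 1) and chr7:45466000-45466023 for Bax (minus strand, exon 3). The windows of the other genes are at chr17:27022534-27022557 for Bak1 (minus strand, exon 4), chr2:128147150-128147173 for Bcl2l11 (plus strand, exon 3) and chr7:16313773-16313796 for Bbc3 (plus strand, exon 3). Each gene held the residue pattern once in its longest coding sequence. The pattern allows the residues found in these 7 windows, so that their match is no result. Of 21538 coding genes, 397 (1.84%) held the pattern. The closest windows were those of the BH3-only genes Bcl2l11 and Bbc3, with 19 of 24 bases identical. The lowest number, 11, was shared by Bak1 with Bbc3, Bcl2, Bcl2l1 and Mcl1, and by Bcl2l1 with Bax and Bbc3.

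Values are CPM scaled with TMM factors, that is, the reads of a gene scaled to the total of the pup's library and corrected for its composition, and are referred to as normalized reads. The reads worked out for all entries summed to 30549126 in ChR2-flfl replicate 3 and to between 47791532 and 48711134 in each of the other pups. Avil, the driver gene, was higher in 8 of 8 Avil-ChR2 pups than in any ChR2-flfl pup. The listed sex went against the male-specific gene Ddx3y in 1 pup, Avil-ChR2 replicate 4, which is labelled female and had 54.7 normalized reads, within the range of the pups at the high level (50.7 to 73.4) and above those at the low level (1.71 to 2.57). A second listing of the sexes by the study names this pup male, and with it 0 of 16 pups disagreed. Cortical neuron markers were present in all pups, with a sum of 2062 to 2226 normalized reads over 8 markers in ChR2-flfl and 2123 to 2231 in Avil-ChR2 cortices. The 5 choroid plexus markers summed to 2.89 to 5.92 and 3.54 to 7.23. The sums of astrocyte, microglia, oligodendrocyte, endothelial, erythroid and cycling cell markers overlapped between the genotypes as well, and P2ry12 and Alas2 had no value in any pup. The entries of P2ry12 and Alas2 each lie inside another on the opposite strand, as described below for Bak1. Their empty values therefore do not show that these genes were not expressed. Of all markers, Slc17a7 of excitatory neurons (log2 difference 0.11) and Ttr of the choroid plexus (1.33) had an unadjusted p under 0.05, and none passed the adjusted test (limma, adjusted p of at least 0.884). With the length slope described below in the fit they differed by 0.040 and 0.70, at unadjusted p of 0.371 and 0.309 (limma). Ttr, listed at 0 in 2 ChR2-flfl pups, differed by 0.21 on the scale of log2(value + 1), at an unadjusted p of 0.0941 (limma). Their part in the results below was not tested.

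Bak1 encodes one of the pore formers. Its entry (chr17:27019812-27028839, minus strand) had 0 reads in all 16 libraries, whereas the other pore former, Bax, had at least 1645 reads in each. The Bak1 entry lies wholly within that of Ggnbp1 (chr17:27018035-27036378, plus strand), a gene named for binding gametogenetin, which had 852 to 1381 reads per pup. For Ggnbp1 this corresponds to a mean of 26.9 ± 1.24 (SD, n = 8) in ChR2-flfl and of 26.3 ± 0.913 in Avil-ChR2 cortices, as normalized reads. In the GENCODE annotation the 2 genes share only 177 of the 2407 exonic bases of Bak1 (7.35%). There Bak1 reaches to 27029009, past the end of its entry. The shared bases start at 27028833, so that few of them lie within the entry. Such empty entries were common where one entry lay inside another. Of 5866 nested entries, 5540 (94.4%) had no value in any pup, against 3152 of 31064 (10.1%) that were not nested. The share was 93.6% for entries nested in one on the opposite strand only and 95.5% for those on the same strand only. It was 1.42% for entries that were not nested but overlapped another, which include those that contain a nested entry. Bak1 could thus not be compared between the genotypes. Whether reads of Bak1 were counted for Ggnbp1 or dropped cannot be told from these values. How reads of overlapping genes were assigned is not given in the sources used here.

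**Figure D1:**
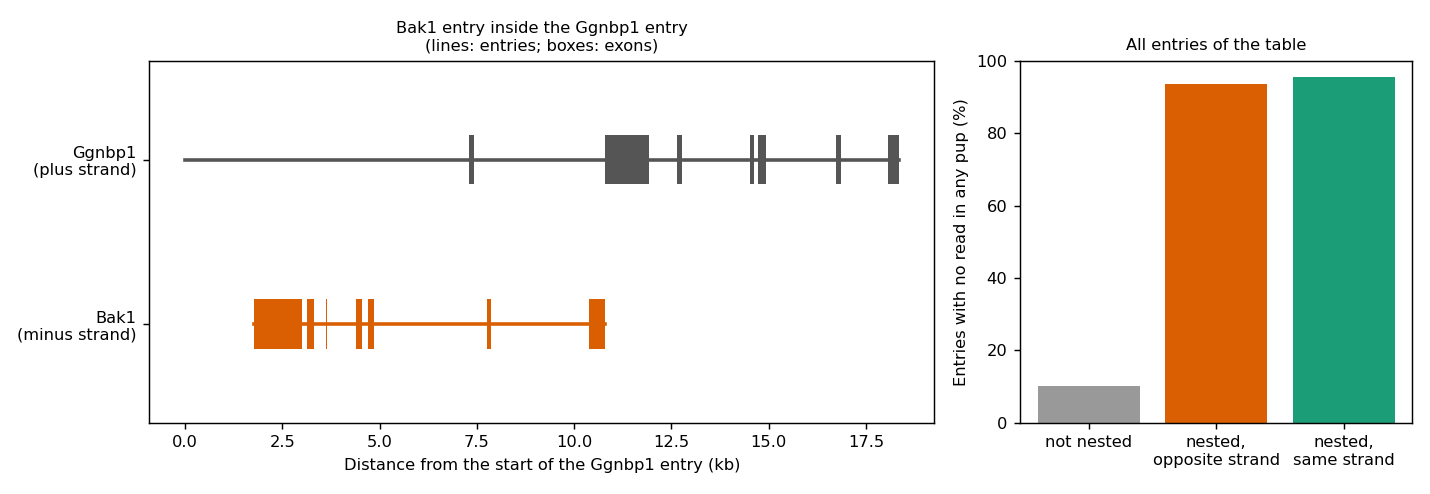
Left, the Bak1 and Ggnbp1 entries as lines with exons as boxes, by distance in kb from the start of the Ggnbp1 entry. Right, bars give the percentage of entries without a read in any of the 16 pups, which was 10.1% for entries not nested in another, 93.6% for entries nested on the opposite strand and 95.5% for those nested on the same strand.

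The levels of different genes were compared per kb of exon, since longer transcripts collect more reads. In ChR2-flfl cortices Bax stood highest, with 31.4 ± 1.40 CPM per kb (SD, n = 8). Mcl1 followed with 26.0 ± 1.08 and Bcl2l1 with 17.3 ± 0.710. Below these came Casp9 with 7.80 ± 0.421, Bbc3 with 5.88 ± 0.979 and Apaf1 with 4.31 ± 0.278. Bcl2 reached 1.89 ± 0.182 CPM per kb and Bcl2l11 0.879 ± 0.136. The ranges over pups did not overlap between neighbours in this order, except for Bbc3 and Apaf1. In Avil-ChR2 cortices the means stood in the same order, but Bbc3, with 3.87 to 8.37 CPM per kb, covered the whole range of Casp9 (7.47 to 8.02) and overlapped that of Apaf1 (3.85 to 4.46). Among the pro-survival genes Mcl1 and Bcl2l1 thus exceeded Bcl2, and among the pro-death genes Bax exceeded the BH3-only genes and the apoptosome genes. The exon length is that of all annotated exons joined, so that for Bcl2 and Bcl2l11, with 9.157 and 8.029 kb, transcripts with shorter ends would give a higher level. For Bcl2l1 the entry starts at chr2:152758732, but the exons used for its length start at 152780668. Exons in the part between would give a lower level. The order also depends on the length used. Without a length, Mcl1 (88.9 CPM) and Bcl2l1 (79.1) stood above Bax (49.5) in ChR2-flfl cortices. Per kb of the whole entry, introns included, Mcl1 (18.5) stood above Bax (9.50). On that scale Bcl2l1 (1.07) fell below Casp9 (1.81) and Bbc3 (1.25), and Bcl2 (0.098) below Bcl2l11 (0.193).

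**Figure D2:**
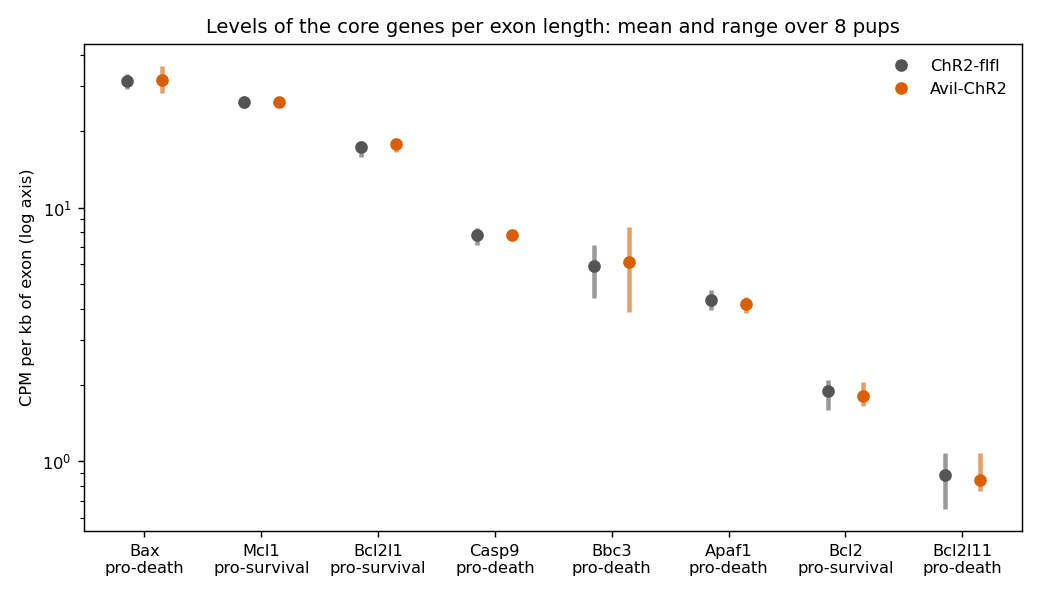
CPM per kb of exon on a log axis for the 8 core genes with reads, with means as points and the range over 8 pups as lines, for ChR2-flfl (grey) and Avil-ChR2 (orange). The order runs from Bax at 31.4 to Bcl2l11 at 0.879 in ChR2-flfl cortices, and the ranges of Bbc3 and Apaf1 overlap.

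The comparison of the genotypes asks whether core apoptosis genes differed after early-life activation of sensory neurons. None of the 8 genes passed the test, at an adjusted or an unadjusted p under 0.05. Of all 21183 genes tested with limma, 2 (0.00944%) had an adjusted p under 0.05, namely Avil and Mars, the methionyl-tRNA synthetase gene, and 1145 (5.41%) had an unadjusted p under 0.05. The difference pointed upwards for 4 of the 8 core genes and downwards for 4. Their median, on the log2 scale, was -0.0015, against 0.0020 over all genes tested. The adjusted p of the 8 genes lay between 0.945 and 0.998 (limma).

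Among the pro-survival genes, Bcl2 (chr1:106538178-106714290, minus strand) had 14.6, 18.1 and 19.1 normalized reads as lowest, median and highest value in ChR2-flfl and 15.1, 16.7 and 18.8 in Avil-ChR2 cortices. The groups overlapped, although 7 of 8 Avil-ChR2 pups lay below the ChR2-flfl mean. The log2 difference, Avil-ChR2 minus ChR2-flfl, was -0.067 ± 0.058 (SE; 95% interval -0.19 to 0.055; limma, adjusted p = 0.954). Bcl2l1 (chr2:152758732-152832581, minus strand), which protects neurons after birth, had 72.5, 78.9 and 83.8 normalized reads in ChR2-flfl and 76.0, 81.9 and 84.8 in Avil-ChR2 cortices. Here 6 of 8 Avil-ChR2 pups exceeded the control mean, and 2 lay above the highest ChR2-flfl pup. Its log2 difference was 0.042 ± 0.030 (SE; 95% interval -0.021 to 0.11; limma, adjusted p = 0.945), the smallest p of the 8 genes. Mcl1 (chr3:95658368-95663179, plus strand), whose protein turns over fast, had 84.7, 88.1 and 93.7 normalized reads in ChR2-flfl and 86.0, 88.5 and 92.3 in Avil-ChR2 cortices. The means were 88.9 ± 3.69 and 88.9 ± 2.84 (SD, n = 8 each), and the 95% interval of the log2 difference ran from -0.058 to 0.061.

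Of the pore formers, Bax (chr7:45461695-45466903, minus strand) had 46.2, 49.4 and 53.2 normalized reads in ChR2-flfl and 44.6, 50.1 and 56.9 in Avil-ChR2 cortices. The Avil-ChR2 pups held both the lowest and the highest value of all 16. The log2 difference was 0.023 ± 0.042 (SE; 95% interval -0.064 to 0.11; limma, adjusted p = 0.985).

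Of the BH3-only genes, Bcl2l11 (chr2:128126038-128162547, plus strand) had the fewest reads of the 8 genes, with a median of 325 and 319.5 reads per library in the genotypes. It had 5.20, 7.17 and 8.63 normalized reads in ChR2-flfl and 6.12, 6.63 and 8.63 in Avil-ChR2 cortices. In Avil-ChR2 cortices 7 of 8 pups lay below the ChR2-flfl mean, within the ChR2-flfl range. The log2 difference was -0.048 ± 0.092 (SE; 95% interval -0.24 to 0.14; limma, adjusted p = 0.986). Bbc3 (chr7:16308321-16318334, plus strand), a target of p53, had 9.32, 12.1 and 15.1 normalized reads in ChR2-flfl and 8.22, 12.8 and 17.8 in Avil-ChR2 cortices. It varied most between pups, with a coefficient of variation of 16.7% in ChR2-flfl and 23.2% in Avil-ChR2 cortices, where counting alone gives 4.16% and 3.99%. The log2 difference was 0.033 ± 0.13 (SE; 95% interval -0.24 to 0.30; limma, adjusted p = 0.992), with the widest interval of the 8 genes.

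Of the apoptosome genes, Apaf1 (chr10:90989311-91082743, minus strand) had 35.8, 38.7 and 42.6 normalized reads in ChR2-flfl and 34.7, 37.4 and 40.2 in Avil-ChR2 cortices. In 6 of 8 Avil-ChR2 pups Apaf1 was below the control mean, and the groups overlapped. The log2 difference was -0.045 ± 0.039 (SE; 95% interval -0.13 to 0.037; limma, adjusted p = 0.954). Casp9 (chr4:141793612-141815978, plus strand), the initiator caspase, had 37.0, 40.4 and 43.3 normalized reads in ChR2-flfl and 38.8, 40.4 and 41.7 in Avil-ChR2 cortices. All Avil-ChR2 pups lay within the ChR2-flfl range, and the 95% interval of the log2 difference ran from -0.074 to 0.065. The cortex is a mixture of cells, and fewer cells of a type and less RNA per cell cannot be told apart in any of these values.

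**Figure D3:**
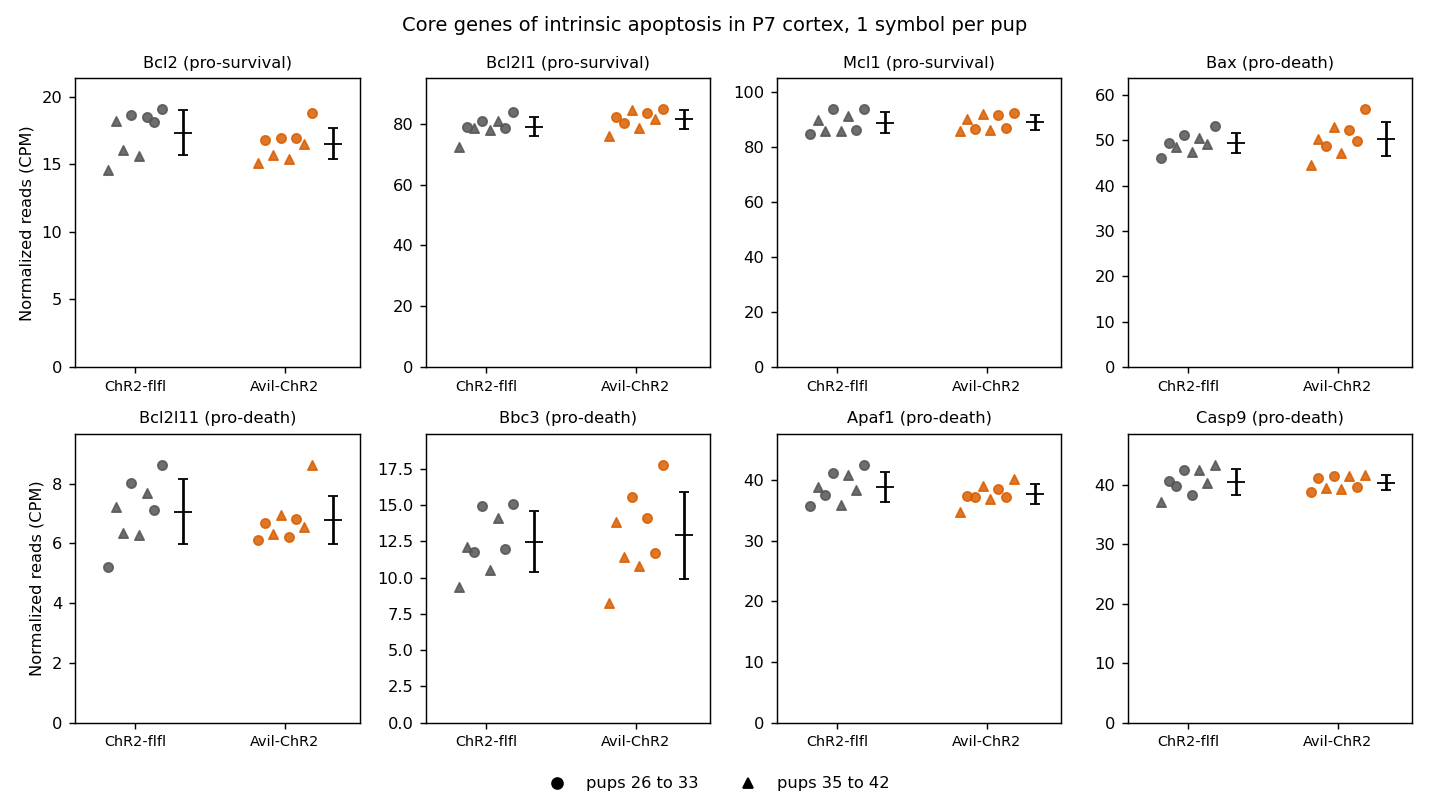
Normalized reads (CPM, axes from 0) of the 8 core genes with reads, 1 symbol per pup, with the mean and SD of each genotype beside them (n = 8) and symbols for pup numbers 26 to 33 (circles) and 35 to 42 (triangles). The genotypes overlap for every gene, and Bbc3 spreads most, from 8.22 to 17.8.

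The balance between both sides of the pathway was described by the mean log2 value of the 5 measured pro-death genes minus that of the 3 pro-survival genes, without a test. It was -1.09 ± 0.072 (SD, n = 8) in ChR2-flfl and -1.10 ± 0.069 in Avil-ChR2 cortices, and differed by -0.00065 between the genotypes, less than the SD. The values ran from -1.21 to -0.955 in ChR2-flfl and from -1.19 to -0.974 in Avil-ChR2 pups, so that the groups overlapped almost wholly. Within pup numbers 26 to 33 the difference was 0.019 and within 35 to 42 it was -0.020. The log2 ratio of Bax to Bcl2 was 1.52 ± 0.15 in ChR2-flfl and 1.61 ± 0.11 in Avil-ChR2 cortices, and 7 of 8 Avil-ChR2 pups exceeded the mean of the controls. This difference of 0.090 was 0.15 within pups 26 to 33 and 0.028 within pups 35 to 42. As a ratio of normalized reads it was 2.88 ± 0.309 and 3.05 ± 0.230, with 5 of 8 Avil-ChR2 pups above the control mean. The log2 ratio of Bax to Bcl2l1 differed by -0.019, with 2 of 8 above, and that of Bbc3 to Mcl1 by 0.031, with 4 of 8 above.

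The interaction of genotype and sex, tested with limma over all genes, had no adjusted p under 0.05 for any of the 21183 genes with either listing of the sexes, and 912 genes with the labelled sexes and 1320 with the second listing had an unadjusted p under 0.05. For the 8 core genes the adjusted p was at least 0.799. Casp9 had the smallest unadjusted p, 0.0498 with the labelled sexes and 0.016 with the second listing (limma, adjusted p = 0.993 and 0.799). Its log2 difference, Avil-ChR2 minus ChR2-flfl, was higher in females than in males by 0.13 and 0.15 with these listings. For Bcl2 it was lower in females, with an interaction of -0.20 and -0.22 and an unadjusted p of 0.0732 and 0.0488 (limma, adjusted p = 0.993 and 0.799).

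Around the core, 48 of 50 listed apoptosis genes could be tested, and 25 of these stood higher and 23 lower in the Avil-ChR2 group. None passed the adjusted test. An unadjusted p under 0.05 was found for 3 higher and 3 lower genes, that is 6 of 48 where 5.41% of all genes did. The MCL1 turnover list of 3 genes held 2 of these 6. The lists were chosen with earlier results of these data known, so this share is no result about apoptosis genes. Of the other pro-survival family genes, 4 of 5 were tested and 0 passed either threshold. Bcl2l2, which encodes BCL-W, had the smallest p there, with a log2 difference of 0.058 ± 0.029 (SE; limma, adjusted p = 0.911). Bcl2a1a, Bcl2a1b and Bcl2a1d are near-identical copies with a median of at most 11.5 reads per group, so that their values are uncertain. Of the other effectors and BH3-only genes (Bok, Bid, Bad, Bmf, Hrk and Pmaip1), 6 of 6 tested were higher in Avil-ChR2 cortices, where 10885 of all 21183 genes tested were. Bik, of the same list, was too low to test. The log2 differences were 0.029 to 0.16, and 0 passed either threshold. These genes were measured in the same pups, so that their shared direction is not 6 separate results. The smallest p was that of Pmaip1, which encodes NOXA (log2 difference 0.16 ± 0.12, SE; limma, adjusted p = 0.945). With the length slope in the fit it differed by 0.29, at an unadjusted p of 0.0249 (limma, adjusted p = 0.887).

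The list of released mitochondrial proteins and of anion channels of the outer membrane (the Vdac genes) held 3 of the 6 genes with a small unadjusted p. Endog, encoding endonuclease G, had 2.34, 2.76 and 3.31 normalized reads as lowest, median and highest value in ChR2-flfl and 2.97, 3.34 and 4.19 in Avil-ChR2 cortices. The Avil-ChR2 pups were mostly higher, but the groups overlapped. Its log2 difference was 0.31 ± 0.091 (SE; limma, adjusted p = 0.772). Vdac1, an anion channel of the outer membrane, and Htra2, a protease that relieves caspase inhibition, differed by 0.068 ± 0.026 and 0.076 ± 0.033 (SE; limma, adjusted p = 0.835 and 0.884). Cycs, which encodes cytochrome c, differed by -0.00044 ± 0.045. The list of executioner caspases and their nuclease had 3 genes higher and 2 lower of 5, and 0 passed either threshold.

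The 3 lower genes with a small unadjusted p were Birc6, Huwe1 and Usp9x. Birc6, a giant inhibitor of apoptosis, had 191.4, 211.6 and 274.1 normalized reads in ChR2-flfl and 180.8, 194.0 and 199.6 in Avil-ChR2 cortices. Only part of the ChR2-flfl pups exceeded the Avil-ChR2 range. The log2 difference was -0.20 ± 0.055 (SE; limma, adjusted p = 0.772). Huwe1, a ubiquitin ligase for MCL1, differed by -0.17 ± 0.046 and Usp9x, which removes ubiquitin from MCL1, by -0.10 ± 0.040 (SE; limma, adjusted p = 0.756 and 0.849). These are long genes that span 175141, 134611 and 102332 bp. When the length slope described below was added to the fit, the differences were -0.13, -0.12 and -0.040, and Usp9x no longer had an unadjusted p under 0.05 (0.277, limma). In the same fit Htra2 differed by 0.049, at an unadjusted p of 0.177 (limma). Endog and Vdac1, at 0.28 and 0.065, kept an unadjusted p under 0.05. The p53 axis and other upstream regulators had 4 genes higher and 6 lower of 10, with Trp53 at 16.7 ± 1.62 and 16.8 ± 1.46 normalized reads, and the death receptor pathway had 5 higher and 2 lower of 7. The smallest p of these lists belonged to Trp73 (-0.14 ± 0.13, SE) and Tnfrsf10b (0.19 ± 0.13, SE), with adjusted p of 0.954 and 0.945 (limma).

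**Figure D4:**
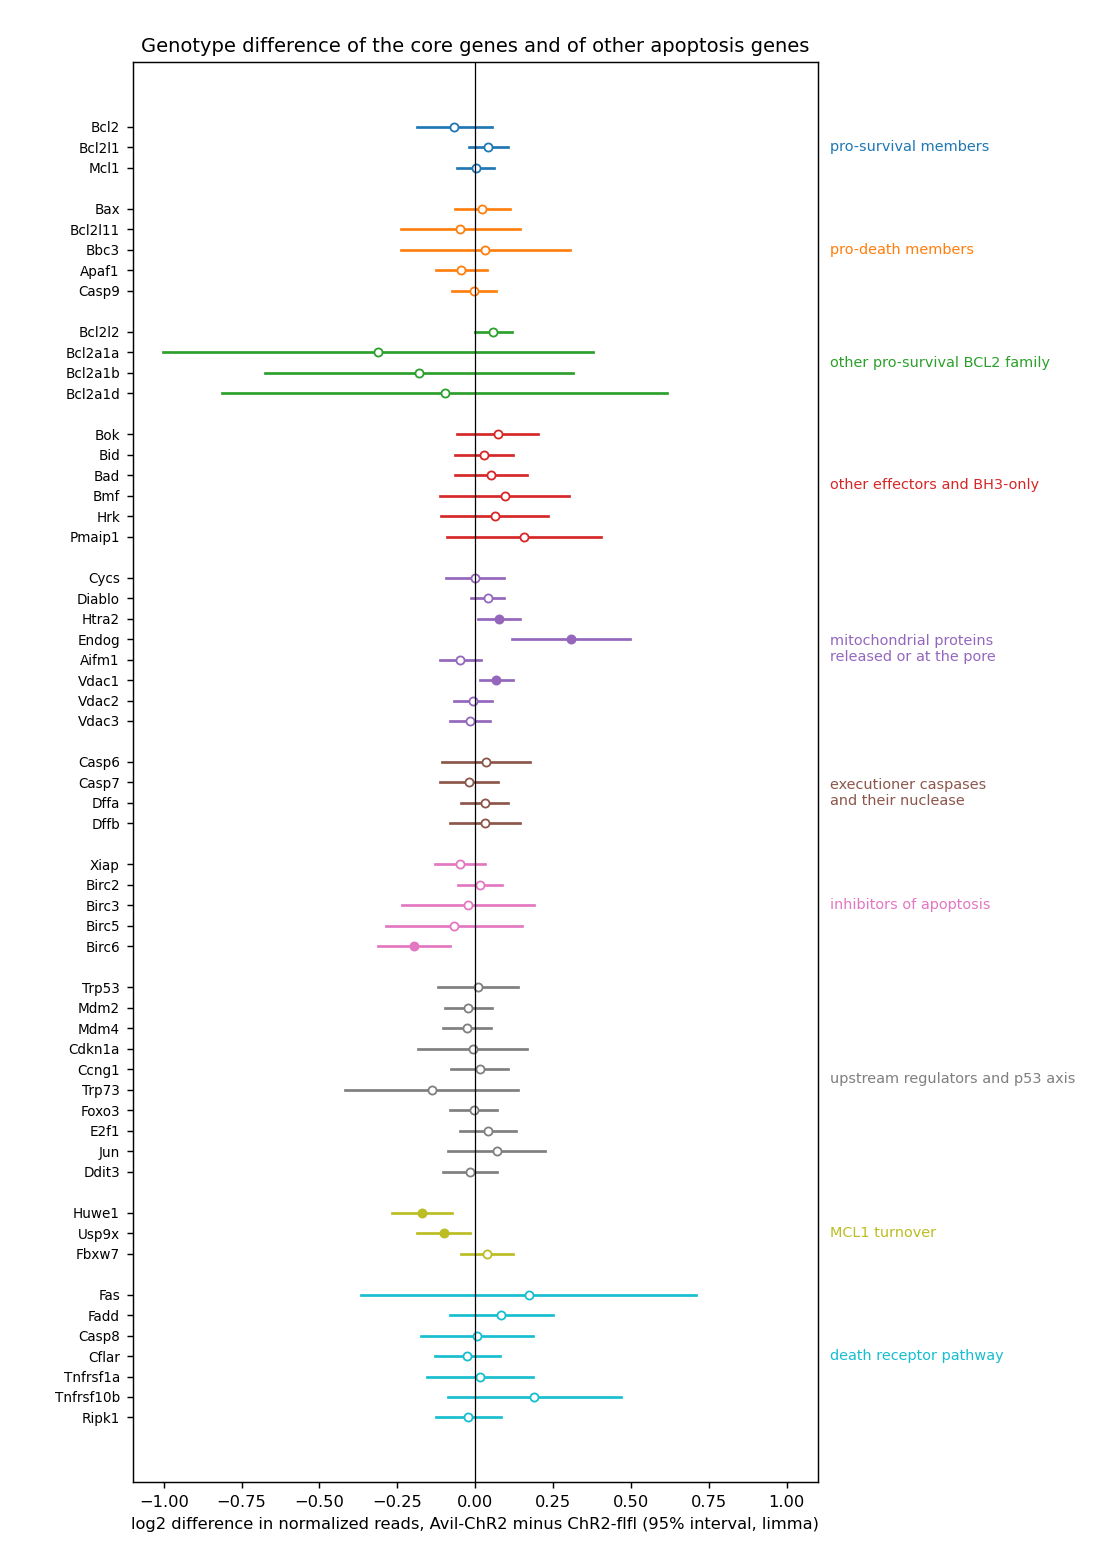
Log2 differences in normalized reads, Avil-ChR2 minus ChR2-flfl, as points with 95% intervals (limma) for the 8 core genes and for other apoptosis genes by list, filled where the unadjusted p was under 0.05. The intervals of all 8 core genes include 0, and the 6 filled points are Htra2, Endog, Vdac1, Birc6, Huwe1 and Usp9x. The list marked as released or at the pore holds released proteins and the Vdac channels, not the pore formers.

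Some of the core genes, namely Bbc3 with Bcl2l1 and with Bax, varied together from pup to pup. This pattern was noticed in the same 16 pups before p was computed, so that the p values describe these pups and are no independent support. Each value was taken as the deviation from the mean of its genotype. Over the 16 pups, 28 gene pairs and 8 relations with the length slope were computed, with p from 100000 permutations, adjusted over the 36 relations. The values were permuted over all 16 pups, and the runs of pup numbers were not kept apart. Bbc3 had 11.7 to 17.8 normalized reads in pups 26 to 33 and 8.22 to 14.1 in pups 35 to 42. A shift in level between the runs, which was not tested, would enter the pooled coefficients and their p. Bcl2l1 and Bbc3, a pro-survival gene and an antagonist of its protein, had a Pearson r of 0.843 (permutation p = 9e-05, adjusted 0.00162) and a Spearman rho of 0.818 (permutation p = 0.00019, adjusted 0.00684). Without the 2 pups farthest from the median of Bcl2l1, r was 0.720. Within pups 26 to 33 r was 0.569 and within pups 35 to 42 it was 0.903 (n = 8 each). Bax and Bbc3 had r = 0.788 (permutation p = 0.00035, adjusted 0.0042) and rho = 0.703 (permutation p = 0.00318, adjusted 0.0364), r = 0.563 without the 2 farthest pups, and r = 0.650 and 0.883 within the runs of pup numbers. The highest Bbc3 value, 17.8 in Avil-ChR2 replicate 1, and the lowest, 8.22 in Avil-ChR2 replicate 6, were in the pups with the highest and the lowest Bax. Of the 28 pairs, these 2 had adjusted p under 0.05 for both coefficients.

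The length slope is the slope of a pup's log2 deviation from the mean of all pups on the log10 span of the gene. It was fitted over 15137 genes, and a pup with a high slope has relatively more reads in long genes. It was 0.015 ± 0.034 (SD, n = 8) in ChR2-flfl and -0.015 ± 0.024 in Avil-ChR2 cortices, and the difference of -0.030 had p = 0.057 in a two-sided exact permutation test. Bcl2l1, Bax and Bbc3 were lower in pups with a higher slope, where r was -0.821 for Bcl2l1 (permutation p = 6e-05, adjusted 0.00162), -0.761 for Bax (p = 0.00063, adjusted 0.00567) and -0.745 for Bbc3 (p = 0.00096, adjusted 0.00691). The rho values were -0.676, -0.794 and -0.688, with adjusted permutation p of 0.0364, 0.00756 and 0.0364. Without the 2 pups farthest from the median slope r was -0.635, -0.698 and -0.553. Within pups 26 to 33 r was -0.481, -0.659 and -0.307, and within pups 35 to 42 it was -0.938, -0.786 and -0.903. Apaf1 had r = 0.641 and rho = 0.632 (permutation p = 0.0079 and 0.0101, adjusted 0.0474 and 0.0517). After the slope was removed from both genes, r was 0.607 for Bcl2l1 with Bbc3 and 0.510 for Bax with Bbc3. What sets the slope of a pup was not tested.

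**Figure D5:**
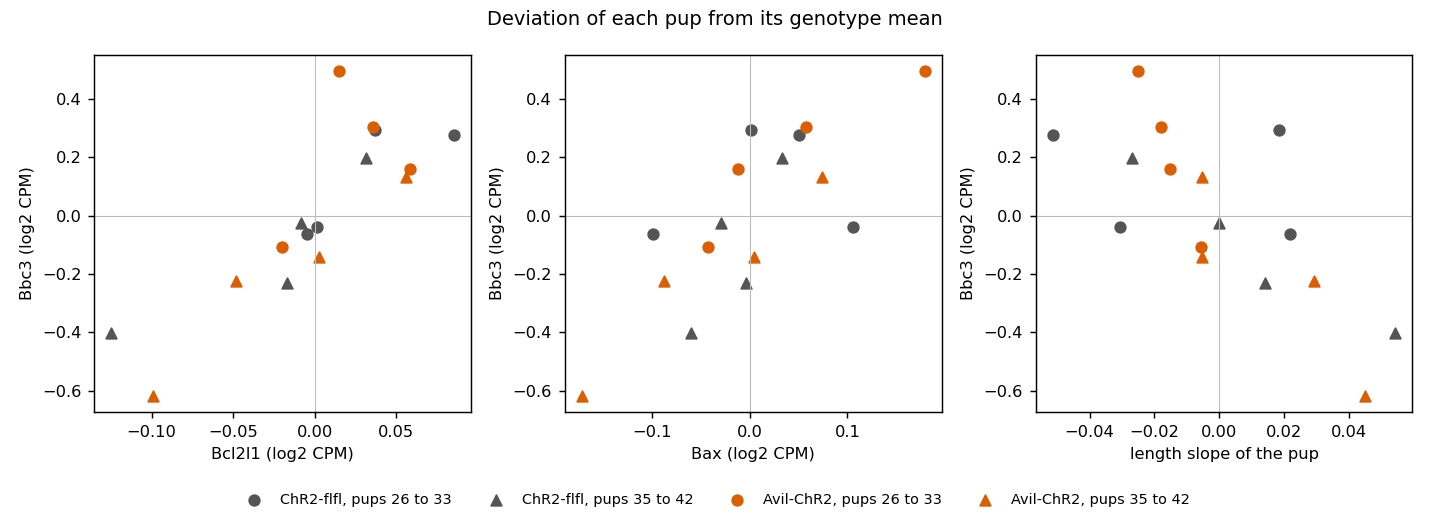
Deviation of Bbc3 from its genotype mean (log2 CPM) against that of Bcl2l1, of Bax and of the length slope, 1 symbol per pup (n = 16), coloured by genotype and shaped by run of pup numbers. Bbc3 is higher in pups with higher Bcl2l1 (r = 0.843) and Bax (r = 0.788) and lower in pups with a higher length slope (r = -0.745).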

How the data were processed

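The authors made stranded mRNA libraries, aligned the reads with SeqMan NGen to mm10 (GRCm38), displayed the mapped reads of each gene with ArrayStar, and applied edgeR's TMM scaling. The deposited values are CPM on a linear scale, 1 column per pup, and empty without reads. Whether counting used the strand, and how overlapping genes were treated, is not given in the sources used here. Values were log2 transformed without a pseudocount and missing or lower values set to -5. Entries with a value above that in at least 12 of 16 pups were kept. Genotypes were compared with limma 3.58.1 in R 4.3.3 (lmFit, eBayes with trend, two-sided) with Benjamini-Hochberg adjustment over 21183 genes, as in the study's filter. The reads behind each value were worked out from the step of 1 read, and 100% of values up to 20000 reads were whole within 0.05. Counting errors from these reads cover counting only, since the libraries had no molecular identifiers. Pups are separate animals, but their litters are not used here. The script was tested on simulated data. Correlations were permuted with scipy 1.17.1 and pandas 2.3.3.

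Exon lengths and coding sequences are from GENCODE M21 (GRCm38). The residue pattern searched for was leucine, 3 residues, glycine or alanine, aspartate, then aspartate, glutamate or glycine, and leucine, phenylalanine, isoleucine or valine.

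The members and lists were chosen with earlier results of these data known. Named are the 9 members, in each list the genes with an unadjusted p under 0.05 or else the one with the smallest p, Avil, genes overlapping a member, and sex-linked genes. Mars and genes given as further examples of a list were named after their values were seen. The balance used 5 of the 6 pro-death genes because Bak1 had no value. 1 gene of the lists is not reported here.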

Additional observations from a re-analysis of the deposited data

Results flagged for a closer look

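In 60 series of 8 pups (each named gene and the balance in each genotype), 5 had 1 pup set apart from the other 7 by more than Dixon's limit, and chance alone gives about 1 in 20. Among the core genes this was Bcl2l11 in Avil-ChR2 replicate 8, with 8.626 normalized reads against 6.12 to 6.96 in the other Avil-ChR2 pups. Avil had 46.38 in Avil-ChR2 replicate 7 against 37.3 to 40.5. Vdac1 had 324.7 in ChR2-flfl replicate 1 against 352.7 to 365.3. Ttr, a choroid plexus marker, had 1.194 in Avil-ChR2 replicate 2 against 0.062 to 0.368. Hba-a1, a hemoglobin gene, had 130.6 in ChR2-flfl replicate 3 against 64.2 to 90.1.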

How the results depend on the processing

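The 8 core genes were recomputed under 26 alternatives each. In 178 of these 208 results the direction was that given above, and 0 reached an adjusted p under 0.05 (limma), the lowest being 0.701. With the labelled sex as covariate, Mcl1 became -0.0052 and Casp9 0.0024. With the length slope as covariate, the log2 differences became -0.0058 for Bcl2l1, -0.045 for Bax, -0.20 for Bbc3 and 0.0075 for Apaf1, and for markers -0.0088 for Csf1r, -0.097 for Olig1 and -0.042 for Cldn5. In pups 26 to 33 alone Mcl1 was -0.0034 and Casp9 0.00071. In pups 35 to 42 alone Bax was -0.0073, Bcl2l11 0.044 and Bbc3 -0.064. Leaving out 1 pup at a time gave -0.0082 to 0.013 for Mcl1, -0.023 to 0.0096 for Casp9, -0.038 to 0.12 for Bbc3, -0.0023 to 0.048 for Bax, -0.11 to -0.0045 for Bcl2l11 (without ChR2-flfl replicates 1 and 3), 0.025 to 0.057 for Bcl2l1, -0.062 to -0.026 for Apaf1 and -0.10 to -0.046 for Bcl2. The cause was not tested. The balance stayed between -0.030 and 0.019 under 27 alternatives, the lowest with the length slope. Its fits with the replicate block, either sex listing and the length slope were chosen after seeing the data.

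The number of genes with an adjusted p under 0.05 was 1 with median centring, with the replicate number as a block, with the length slope and in either run of pup numbers, and 1 to 2 with 1 pup left out. The replicate block changed no call of a core gene. The shared numbers were not taken to pair the pups. Of the same-numbered pairs, 3 of 8 had a correlation of residuals above 0.1 (range -0.344 to 0.389), and 1 pup correlated best with its own number. These values were not compared with pairs formed at random and cannot settle whether the numbers carry a pairing. A planned edgeR test on the recovered reads was not run. Instead voom with limma on these reads was added after seeing the data and called 2 genes.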
